A study of Mus musculus with 4 samples.

Results

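The genes considered here encode 8 large enzymes that write histone marks: the histone methyltransferases Kmt2a, Kmt2c, Kmt2d, Setd2 and Ehmt1 and the histone acetyltransferases Ep300, Crebbp and Kat6a. They were found by gene name in the count table, where each name matched 1 of the 53465 listed genes, and all 8 were among the 14682 genes with enough reads to be tested. The samples were MDSCs, immature myeloid cells that suppress T cells, sorted with beads against Gr-1 (Ly-6G and Ly-6C) from the spleens of male BALB/c mice, 6 weeks old at the start, that carried tumors of 4T1, a transplantable mouse mammary carcinoma line. The labels place the sort on day 21 after injection of the 4T1 cells, and the paper's methods give an earlier time. The control group (2 libraries) was cultured for 6 h in control medium, and the EGCG group (2 libraries) received 5 μg/mL EGCG over the same 6 h. EGCG is the most abundant green tea catechin. The strain, tumor and sort were shared by both groups. Whether separate mice or cultures gave the libraries is not stated in the labels, so the tests measure the spread between these libraries, which may be technical.

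The histone methyltransferases of this group place methyl groups on lysines of histone tails, and the position decides the use of the mark. Methylation of H3K4 is found at promoters and enhancers, H3K36 methylation along transcribed gene bodies, and H3K9 dimethylation at silenced genes. Histone acetyltransferases neutralize lysines and mark active promoters and enhancers. Several of these enzymes are required for normal blood cell formation, and Kmt2a, Crebbp, Ep300 and Kat6a are known from the gene fusions of myeloid leukemia. EGCG has been described as an inhibitor of histone acetyltransferase activity in biochemical assays, whereas the data here are transcript counts and hold no measurement of enzyme activity or of histone marks.

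The 8 genes share long transcripts and, as far as the RefSeq promoter table holds them, CpG-rich promoters. Windows from 250 bases before to 50 bases after the start (GRCm38.p6) matched 7 of the 8 genes. The RefSeq starts need not be those of the gene models given with each gene, and the windows of Ep300 and Crebbp lie within the gene models. Their median GC content was 75.7%, against 52.7% for all 32851 windows in the table, and they held a median of 36 CpG dinucleotides against 7. The GC box GGGCGG was searched on both strands, so that CCGCCC also counts and matches may overlap. It was present in 7 of 7 windows and in 35.7% of all windows, with the most matches in Kmt2c (12) and the fewest in Ep300 (1). The letters CCAAT (37.4% of all windows), TATAAA (13.6%), CCGGAAG (the core of ETS sites, 8.86%) and the palindromic NRF1 consensus (0.971%), also searched on both strands, were in 0 of the 7 windows. The windows that follow are those of the pair with the log2 fold changes farthest from 0 (Kmt2d and Kmt2a) and of the closely related pair Ep300 and Crebbp, each 5′ to 3′ on the strand of its gene, with GC boxes in capitals. They lie at chr15:98871156-98871455 (Kmt2d, minus strand), chr9:44881240-44881539 (Kmt2a, minus strand), chr15:81585964-81586263 (Ep300, plus strand) and chr16:4213355-4213654 (Crebbp, minus strand).
Kmt2d: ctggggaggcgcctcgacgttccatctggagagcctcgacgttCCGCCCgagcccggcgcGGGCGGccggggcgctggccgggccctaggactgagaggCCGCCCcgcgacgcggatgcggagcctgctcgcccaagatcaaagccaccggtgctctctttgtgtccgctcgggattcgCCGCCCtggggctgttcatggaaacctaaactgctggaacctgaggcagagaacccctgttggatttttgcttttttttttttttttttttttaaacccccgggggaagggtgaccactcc
Kmt2a: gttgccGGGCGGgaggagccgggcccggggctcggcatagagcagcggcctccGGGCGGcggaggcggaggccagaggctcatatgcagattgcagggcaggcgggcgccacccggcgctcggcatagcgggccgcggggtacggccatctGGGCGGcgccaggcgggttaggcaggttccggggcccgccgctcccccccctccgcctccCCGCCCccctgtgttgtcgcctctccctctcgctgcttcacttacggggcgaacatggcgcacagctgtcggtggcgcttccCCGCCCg
Ep300: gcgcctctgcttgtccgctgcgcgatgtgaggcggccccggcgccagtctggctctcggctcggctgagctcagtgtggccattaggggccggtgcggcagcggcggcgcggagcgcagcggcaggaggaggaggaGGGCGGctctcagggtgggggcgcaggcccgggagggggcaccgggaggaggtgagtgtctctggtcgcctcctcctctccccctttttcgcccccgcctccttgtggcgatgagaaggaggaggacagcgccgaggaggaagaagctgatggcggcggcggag
Crebbp: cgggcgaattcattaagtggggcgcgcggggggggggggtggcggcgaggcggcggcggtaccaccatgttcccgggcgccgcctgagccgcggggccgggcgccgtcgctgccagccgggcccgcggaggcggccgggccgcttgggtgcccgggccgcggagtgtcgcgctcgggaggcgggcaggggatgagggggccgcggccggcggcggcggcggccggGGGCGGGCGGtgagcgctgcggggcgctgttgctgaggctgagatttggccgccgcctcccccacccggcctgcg

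Across the EGCG and control libraries, all 8 genes had lower mean levels with EGCG, as did 49.4% of the tested genes, and none of the 8 passed the adjusted threshold. Their log2 fold changes, EGCG over control, ran from -0.41 (Kmt2d) to -0.12 (Setd2), with a median of -0.19 beside 0.0031 for all tested genes. By edgeR's quasi-likelihood test, 0 of the 8 had an adjusted p under 0.05, where 0.136% of all tested genes were called lower and 0.0136% higher. Of the 8, 4 (Kmt2d, Kmt2a, Kmt2c and Kat6a) were lower with an unadjusted p under 0.05, against 7.02% of the tested genes, and 0 were higher against 5.22%. The 4 became 1 (Kmt2d) when control replicate 1 was dropped. DESeq2 called 1 of them, Kmt2d (adjusted p = 0.0344), in a test that called 0.551% of its genes lower and 0.173% higher. Both EGCG libraries lay below both control libraries for 7 of the 8 genes, the exception being Ehmt1, whereas this held for 21.2% of the tested genes. With 2 libraries against 2, an exact permutation test of a single gene cannot give a two-sided p below 0.333. In bulk RNA, fewer cells of a type and less RNA per cell cannot be told apart.
These shares were larger among long transcripts. Among the longest 5% of the tested genes (733 genes with at least 11726 exonic bases), 81.7% had a log2 fold change below 0, 30.2% were lower at an unadjusted p under 0.05, 1.36% were called lower by the adjusted p of edgeR, and in 54.3% the EGCG libraries lay below the control libraries. Of the 8 genes, 5 are in this class. Ehmt1 and Kat6a fall in a class of shorter genes where 13.5% were lower at an unadjusted p under 0.05 and 36.2% did not overlap in this direction, and Setd2 in one where these shares were 17.5% and 41.7%. Summed over the 8 genes, the level was 1325 and 1202 CPM (the count scaled to a fixed library size, with TMM factors) in the control libraries and 1082 and 1062 CPM in the EGCG libraries.

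**Figure D1:**
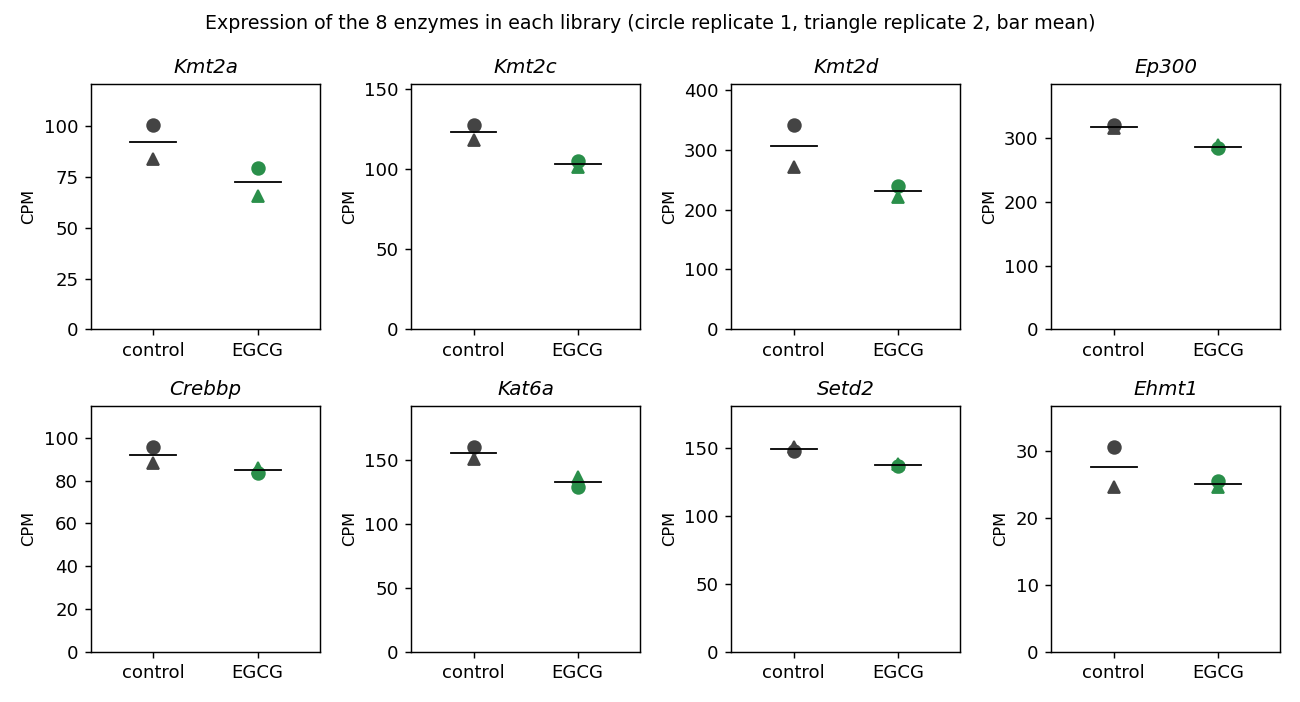
Level of each of the 8 genes in CPM (vertical axis, from 0) in the control and EGCG libraries, with a circle for replicate 1, a triangle for replicate 2 and a bar for the mean of 2 libraries. The EGCG points lie below the control points for 7 genes, while those of Ehmt1 overlap, and control replicates 1 and 2 of Kmt2d stand at 341.8 and 270.5 CPM.

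Kmt2d, Kmt2c and Kmt2a are the H3K4 methyltransferases of the group. Kmt2d (ENSMUSG00000048154, MLL4) places H3K4 monomethylation at enhancers and occupies positions 98831669 to 98871204 of chromosome 15 (GRCm38, minus strand), with 19931 exonic bases. Its level was 341.8 and 270.5 CPM in control replicates 1 and 2 and 239.5 and 220.9 CPM in EGCG replicates 1 and 2. The groups did not overlap, but the control replicates differed by more than control replicate 2 differed from either EGCG library. The EGCG mean was 0.752 times the control level, a log2 fold change of -0.41 (standard error 0.10, edgeR adjusted p = 0.120). Leaving out a library leaves 1 library in its group, which is then assumed to vary like the pair that remains, so these fits show how the values move and are no separate support for a call. For Kmt2d the value was -0.23 without control replicate 1 (edgeR adjusted p = 0.582). It was -0.57 without control replicate 2 (edgeR adjusted p = 0.000152), -0.47 without EGCG replicate 1 (0.00303) and -0.35 without EGCG replicate 2 (0.0452). When only library sizes were used, without TMM factors, the edgeR adjusted p of Kmt2d was 0.0214.
Kmt2c (ENSMUSG00000038056, MLL3), the closest relative of Kmt2d, acts in a complex of the same kind at enhancers and lies on chromosome 5 from 25271798 to 25498783, on the minus strand, with 20291 exonic bases. It was at 127.7 and 117.8 CPM in the control libraries and 104.8 and 101.4 CPM in the EGCG libraries, without overlap and with closer replicates than Kmt2d. The log2 fold change was -0.25 (standard error 0.08, edgeR adjusted p = 0.223).
Kmt2a (ENSMUSG00000002028, MLL1) maintains the expression of homeobox genes in blood stem cells and lies on chromosome 9 from 44803355 to 44881296, on the minus strand, with 16670 exonic bases. Its level was 100.9 and 84.1 CPM in the control libraries and 79.4 and 65.7 CPM in the EGCG libraries. The lower control library and the higher EGCG library were close together, and the replicates of each group were farther apart than these. The log2 fold change was -0.35 (standard error 0.10, edgeR adjusted p = 0.217). It became -0.21 without control replicate 1, -0.22 without EGCG replicate 2, -0.47 without control replicate 2 (edgeR adjusted p = 0.00644) and -0.49 without EGCG replicate 1 (edgeR adjusted p = 0.00517), in the same kind of fit with a lone library in 1 group.

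Setd2 and Ehmt1 are the methyltransferases with other target lysines. Setd2 (ENSMUSG00000044791), the enzyme of H3K36 trimethylation, lies on chromosome 9 from 110532597 to 110618633, on the plus strand, with 10754 exonic bases. It was at 147.4 and 150.7 CPM in the control libraries and 136.7 and 138.1 CPM in the EGCG libraries. Replicates were close in both groups and the groups did not overlap. The log2 fold change was small, -0.12 (standard error 0.07, edgeR adjusted p = 0.558).
Ehmt1 (ENSMUSG00000036893, GLP), which forms the H3K9 dimethylation complex with Ehmt2 (G9a), lies on chromosome 2 from 24789928 to 24919614, on the minus strand, with 8116 exonic bases. It had the fewest reads of the group, with 558 and 440 reads counted in the controls and 463 and 439 after EGCG. Its level was 30.6 and 24.6 CPM in the control libraries and 25.5 and 24.6 CPM in the EGCG libraries, so control replicate 2 lay within the EGCG range. The log2 fold change was -0.14 (standard error 0.11, edgeR adjusted p = 0.673) and 0.03 without control replicate 1, the one library that stood above the others.

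Ep300, Crebbp and Kat6a are the acetyltransferases. Ep300 (ENSMUSG00000055024, p300) acetylates H3K27 at enhancers and lies on chromosome 15 from 81585351 to 81652077, on the plus strand, with 14273 exonic bases. Its level was 321.3 and 315.2 CPM in the control libraries and 284.0 and 289.3 CPM in the EGCG libraries. The replicates were close, the groups did not overlap, and the log2 fold change was -0.15 (standard error 0.07, edgeR adjusted p = 0.422).
Crebbp (ENSMUSG00000022521, CBP), its close relative with the same catalytic activity, lies on chromosome 16 from 4081328 to 4213997, on the minus strand, with 13540 exonic bases. It was at 95.7 and 88.1 CPM in the control libraries and 83.7 and 85.7 CPM in the EGCG libraries. The groups did not overlap, but control replicate 2 was nearer to the EGCG libraries than to its own replicate. The log2 fold change was -0.12 (standard error 0.08, edgeR adjusted p = 0.593) and -0.05 without control replicate 1.
Kat6a (ENSMUSG00000031540, MOZ), an H3 acetyltransferase needed for blood stem cells, lies on chromosome 8 from 22859535 to 22943259, on the plus strand, with 9180 exonic bases. Its level was 159.9 and 150.8 CPM in the control libraries and 128.5 and 136.1 CPM in the EGCG libraries. The groups were separated by more than the replicates of either group differed. The log2 fold change was -0.23 (standard error 0.08, edgeR adjusted p = 0.240), and it stayed between -0.27 and -0.18 with each library left out in turn.

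Control replicate 1 was farther from the EGCG libraries than control replicate 2 was. Over the genes with 10 or more reads in a pair, the mean chi-square of counts between control replicate 1 and the EGCG libraries was 14.4 and 11.2, against 6.90 and 6.14 for control replicate 2 and 6.25 and 6.07 between replicates of a group. Total counts ran from 17767318 to 18390385. With control replicate 1 dropped, the log2 fold changes of the 8 genes had their median at -0.16, and with control replicate 2 dropped at -0.28, beside 0.0083 and 0.0050 for all genes tested in those fits. Transcripts of the sorted cells were present in all libraries: the 9 MDSC, neutrophil and monocyte markers summed to between 43443 and 61494 CPM, lowest in control replicate 1. Of the 9 marker lists for other cell types, basophil, mast cell and eosinophil markers summed to 1166 and 1041 CPM in the control libraries and 1011 and 866.5 CPM in the EGCG libraries. In this list Prg2, Epx and Siglecf were lower in both EGCG libraries, and the groups overlapped for Mcpt8, Cpa3 and Ms4a2. The 7 splenic macrophage markers summed to 324.0 and 341.7 CPM in the control libraries and 271.6 and 284.9 CPM in the EGCG libraries. Of these, Adgre1, C1qc and Vcam1 were lower in both EGCG libraries, and the groups overlapped for C1qa, C1qb, Spic and Cd163. Apart from the B cell list, the macrophage list and the list with basophil, mast cell and eosinophil markers, the lists for other cell types stayed at or below 206.4 CPM in every library. Sums were lower in both EGCG libraries than in both controls for endothelial markers (94.2 and 98.6 against 113.9 and 126.0 CPM) and platelet markers (35.4 and 34.2 against 38.7 and 43.6 CPM). The same held for the macrophage sum and for the sum over basophil, mast cell and eosinophil markers. Sums were higher in both EGCG libraries for T and NK cell markers (104.3 and 107.7 against 90.7 and 104.1 CPM) and for B cell and plasma cell markers (631.3 and 567.3 against 526.6 and 565.3 CPM). Most of the T and NK sum was Cd3d (87.7 and 90.2 against 75.2 and 86.0 CPM). Cd8a and Ncr1 were lower in both EGCG libraries, and the groups overlapped for the other T and NK markers. Krt14 was at 0 throughout. The part of other cells in the levels of the 8 genes was not tested.

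Levels were compared between genes per kilobase of exonic length. In the control libraries, Ep300 was highest at 22.3 ± 0.301 CPM per kilobase (SD, n = 2), followed by Kat6a at 16.9 ± 0.705, Kmt2d at 15.4 ± 2.53 and Setd2 at 13.9 ± 0.215 (SD, n = 2). The low group was Crebbp at 6.79 ± 0.397, Kmt2c at 6.05 ± 0.344, Kmt2a at 5.55 ± 0.711 and Ehmt1 at 3.40 ± 0.517 CPM per kilobase (SD, n = 2). Within this order the libraries of Kat6a and Kmt2d, of Kmt2d and Setd2, and of Kmt2c and Kmt2a overlapped. In the EGCG libraries Kmt2d (11.5 ± 0.662 CPM per kilobase, SD, n = 2) was below Setd2 (12.8 ± 0.0956, SD, n = 2), and the order of the others was the same. Exonic length joins the exons of all transcripts of a gene. It was 10754 bases for Setd2, whose longest transcript has 8350, but 19931 against 19823 for Kmt2d and 9180 against 9113 for Kat6a. The order between genes, with the places of Setd2, Kat6a and Kmt2d, therefore depends on the length used.
Ratios of counts within a library do not depend on the scaling of libraries. The ratio of Ep300 to Crebbp was 3.36 and 3.58 in control and 3.39 and 3.38 in EGCG libraries, so the groups overlapped for the acetyltransferase pair. Kmt2d to Ep300 was 1.06 and 0.858 in control and 0.843 and 0.763 in EGCG libraries. Kmt2d to Kmt2c was 2.68 and 2.30 against 2.28 and 2.18 with EGCG. Both Kmt2d ratios were lower with EGCG without overlap, by a margin between control replicate 2 and EGCG replicate 1 that was smaller than the distance between the control replicates. The groups overlapped for Kmt2a to Kmt2c (0.790 and 0.714 in control, 0.757 and 0.648 in EGCG libraries) and for Kmt2a to Setd2 (0.684 and 0.558 in control, 0.581 and 0.476 in EGCG libraries).

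Since all 8 genes have long transcripts, their differences were set beside the trend of fold change with length. Across 14655 tested genes with a known exonic length, the Spearman correlation of log2 fold change with length was -0.285, a description across genes that share 4 libraries. The median log2 fold change went from 0.13 in the shortest of 20 length bins to -0.15 in the longest. The trend was also present between the control replicates (correlation of -0.159 for control replicate 2 minus control replicate 1), and it was near 0 between the EGCG replicates (0.0276). The correlation was -0.191 when control replicate 1 was left out.
Ep300 and Crebbp lay at the trend: their log2 fold changes differed by 0.0023 and 0.04 from the median of their length bin, and 49.5% and 41.9% of the genes in the bin had higher values. Setd2 differed by -0.03 and Ehmt1 by -0.07 from the bin median. Kmt2c differed by -0.10. Kat6a differed by -0.16, Kmt2a by -0.20 and Kmt2d by -0.26, and 82.0%, 85.4% and 90.3% of the genes in the bin had higher values. Kmt2a, Kmt2c and Kmt2d are longer than the median gene of their bin, and beside the 200 tested genes nearest in length, a comparison added after seeing the data, they differed by -0.18, -0.075 and -0.23. When genes were binned by coding length, the difference of Kat6a was -0.02, that of Setd2 was 0.09 and that of Kmt2d was -0.20. Dropping a library moved the difference of Kmt2d from its bin between -0.40 (without control replicate 2) and -0.12 (without control replicate 1), and that of Kmt2a between -0.33 (without EGCG replicate 1) and -0.082 (without EGCG replicate 2). The difference of Ehmt1 ran from -0.20 (without control replicate 2) to 0.087 (without control replicate 1).

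**Figure D2:**
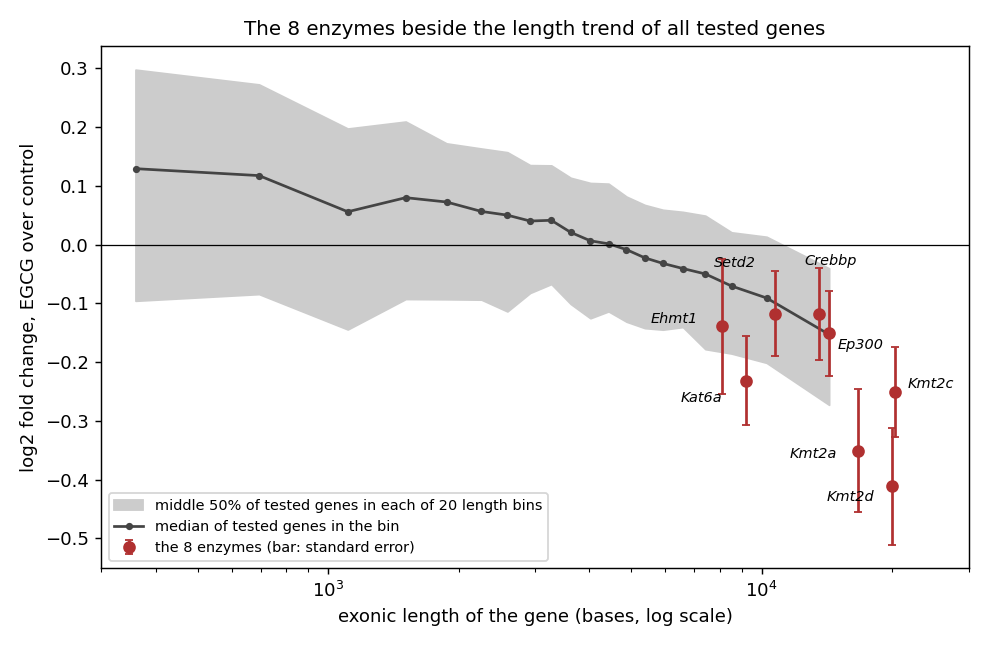
Log2 fold change (EGCG over control, vertical axis) against exonic length in bases (log scale). The line joins the medians of tested genes in 20 length bins, the gray band spans their middle 50%, and red points are the 8 genes with their standard errors. Ep300, Crebbp and Setd2 lie near the line, Kat6a lies below the gray band, and Kmt2a, Kmt2c and Kmt2d lie to the right of the last bin's median length.

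The same test was repeated with a length correction, in which a smooth curve of log counts on log exonic length was fitted in each library and entered as an offset. The median log2 fold change of the 8 genes was then -0.050, beside 0.03 for all tested genes, and 5 of the 8 were below 0 against 42.8% of the tested genes. This median was -0.11 without control replicate 2, -0.082 without EGCG replicate 1 and -0.022 without EGCG replicate 2. Kmt2d had a log2 fold change of -0.21 (standard error 0.09, edgeR adjusted p = 0.418) and was the 1 gene of the 8 with an unadjusted p under 0.05, against 4.45% of the tested genes that were lower and 6.1% that were higher at this level. None of the 8 passed the adjusted threshold of edgeR with this correction, under which 0.0204% of the tested genes were called lower. Kmt2a was at -0.17 (standard error 0.10, edgeR adjusted p = 0.540) and Kat6a at -0.13 (standard error 0.08, edgeR adjusted p = 0.580). The others were within their standard error of 0: Kmt2c at -0.054, Ehmt1 at -0.047, Ep300 at 0.0060, Setd2 at 0.0059 and Crebbp at 0.034. With a library left out, the corrected value of Kmt2d ran from -0.33 without control replicate 2 to -0.089 without control replicate 1. That of Kmt2a ran from -0.32 without EGCG replicate 1 to -0.045 without EGCG replicate 2. The correction removes what genes of like length share, whatever its source, and the source of the trend was not tested.

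**Figure D3:**
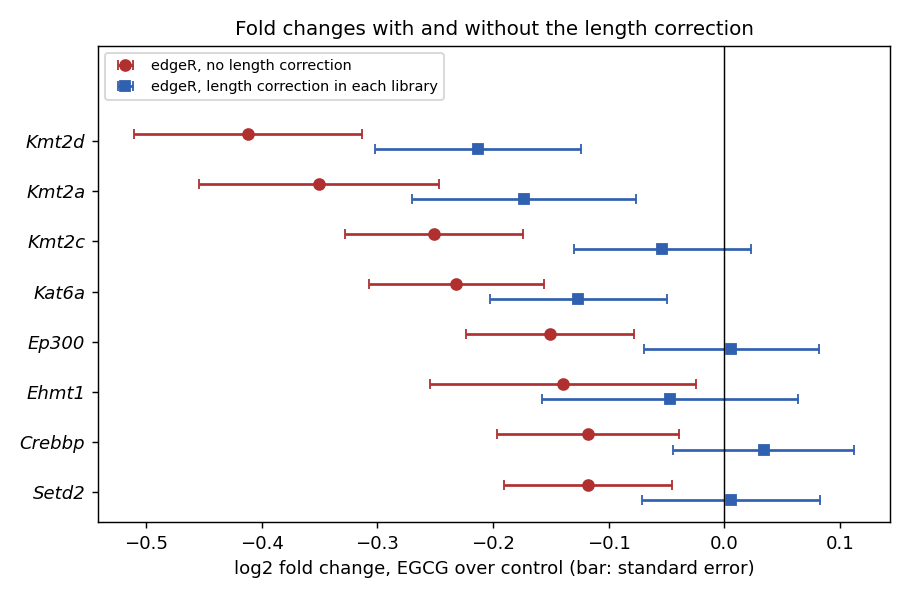
Log2 fold change of each gene (EGCG over control, horizontal axis, with standard error) without the length correction (red circles) and with it (blue squares). Without the correction all 8 points are below 0, from -0.41 to -0.12, and with it they lie between -0.21 and 0.03.

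Differences between single libraries show where the values come from. In log2 CPM, control replicate 2 minus control replicate 1 was -0.34 for Kmt2d, -0.31 for Ehmt1 and -0.26 for Kmt2a, beside a median of -0.06 for the longest 733 genes. EGCG replicate 2 minus EGCG replicate 1 was -0.27 for Kmt2a and between -0.12 and 0.08 for the other 7. For Kat6a the 4 differences between an EGCG and a control library ran from -0.32 to -0.15, whereas its replicates differed by -0.09 and 0.08. For Setd2 the 4 differences ran from -0.14 to -0.09, and its replicates differed by 0.03 and 0.02.

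**Figure D4:**
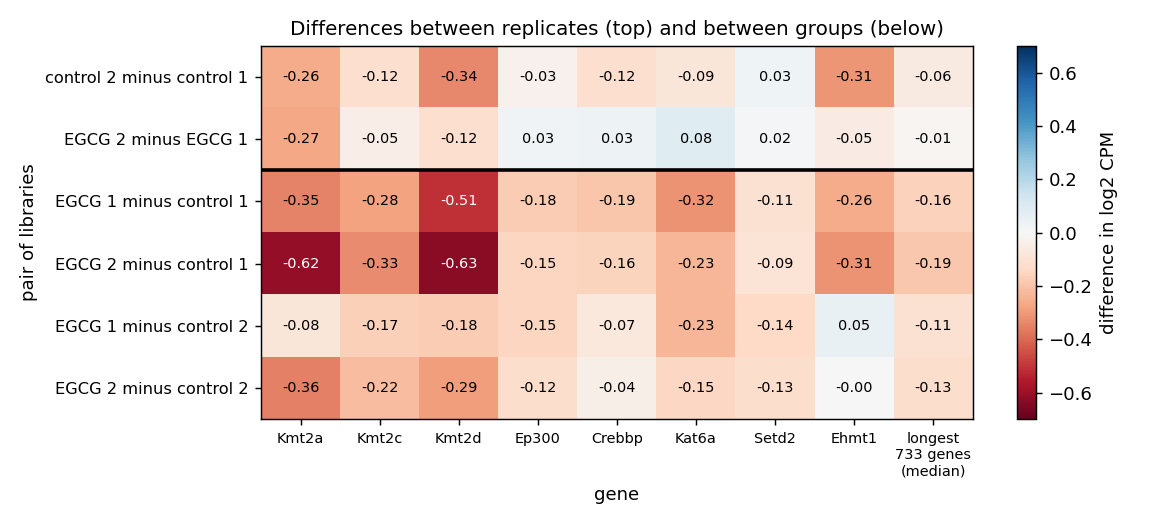
Difference in log2 CPM between pairs of libraries (rows, replicates above the black line and EGCG minus control below it) for each gene and for the median of the longest 733 tested genes (columns). Red cells are negative: Kmt2d and Kmt2a have their lowest values against control replicate 1, at -0.63 and -0.62 for EGCG replicate 2.

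Other genes of histone modification were taken from 9 lists. Of their 95 genes, 93 were tested (Smyd1 and Pagr1a were not), 57 were lower and 36 higher with EGCG, and 0 passed the adjusted threshold of edgeR in either direction. Those with an unadjusted p under 0.05 numbered 11 on the lower side and 1 on the higher side, where 7.02% and 5.22% of all tested genes and 30.2% of the longest 733 (lower side) had one. Genes at least as long as Ehmt1 (35 genes) were lower in 28 cases and higher in 7, and the median of their log2 fold changes was -0.09. The 58 shorter genes were split evenly, 29 lower and 29 higher. After the length correction the medians of the 2 classes were 0.02 and 0.03. Over all 93 genes 37 were then lower and 56 higher, where 42.8% of all tested genes were lower. An unadjusted p under 0.05 was found for 2 lower and 5 higher genes, against 4.45% and 6.1% of all tested genes.
Among the 42 tested methyltransferases and acetyltransferases besides the 8, 30 were lower and 6 had an unadjusted p under 0.05, all lower. At this level 7.02% of all tested genes were lower and 5.22% higher, and 30.2% of the longest 733 were lower. After the length correction 22 were lower and 20 higher, with 1 on each side at an unadjusted p under 0.05. Over all tested genes in that fit, 4.45% were lower and 6.1% higher at this level. The values that follow are without the correction. The H3K4 relatives Kmt2b (146.7 ± 11.8 CPM in control and 126.7 ± 7.69 CPM in EGCG libraries, SD, n = 2) and Setd1b had log2 fold changes of -0.21 and -0.26, and the core H3K4 enzyme Setd1a had -0.10. The groups overlapped for Setd1a (19.3 and 22.2 CPM in control and 18.4 and 20.4 CPM in EGCG libraries). The H3K36 methyltransferases Ash1l and Nsd1 were at -0.29 and -0.28. Dot1l, the H3K79 methyltransferase, was at -0.35 (61.8 ± 8.84 CPM in control and 48.6 ± 0.0055 CPM in EGCG libraries, SD, n = 2). In that list Ezh2, the H3K27 methyltransferase of Polycomb, was at 0.13. Ehmt2, the partner of Ehmt1, had a log2 fold change of -0.11. The other H3K9 enzymes Setdb2 and Suv39h1 were at -0.37 and 0.26. In log2 CPM, differences between an EGCG and a control library ran from -0.52 to -0.20 for Setdb2 and from 0.07 to 0.45 for Suv39h1. For Dot1l they ran from -0.48 to -0.19. The other acetyltransferases were split, 5 lower and 5 higher, with a median of -0.02. Among them Kat6b, the relative of Kat6a, was at -0.20, the coactivator Ncoa3 at -0.15 and Clock at -0.21. Of the arginine methyltransferases, 6 of 7 were lower, with Carm1 at -0.22 and Prmt7 at -0.19.
Partner subunits were listed for the complexes of Kmt2a, Kmt2c and Kmt2d (COMPASS-like), Kat6a (MOZ/BRPF) and Ehmt1 (G9a/GLP). They split 10 lower and 6 higher, and 6 lower and 10 higher after the length correction. Hcfc1, a subunit of SET1 and MLL complexes, was at -0.28 and Ncoa6, a subunit of the Kmt2c and Kmt2d complexes, at -0.19. Of the histone demethylases, 14 of 17 were lower, with Jmjd1c at -0.21 and Kdm5c at -0.19, and their median of -0.09 was 0.0080 after the length correction. Of the deacetylases and sirtuins, 15 of 18 were higher, where 7428 of the 14682 tested genes were, and their median was 0.05 beside 0.0031 for all tested genes. That median was 0.12 after the length correction, 0.019 with library size only, and between 0.028 (without EGCG replicate 1) and 0.14 (without EGCG replicate 2) when a library was dropped. The 2 with the smallest p, Sirt5 (1.72 ± 0.130 CPM in control and 2.61 ± 0.0277 CPM in EGCG libraries, SD, n = 2) and Sirt4 (2.13 ± 0.385 and 2.95 ± 0.188 CPM, SD, n = 2), had few reads. The deacetylases and sirtuins held 0 genes past the adjusted threshold of edgeR. Of the 18, 1 (Sirt5) was higher with an unadjusted p under 0.05, against 5.22% of the tested genes. After the length correction 3 (Hdac4, Hdac5 and Sirt5) had one on the higher side, against 6.1% of the tested genes.

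Long transcripts with other functions were set beside the enzymes. The list held 16 genes for giant linker proteins, motor proteins, ubiquitin ligases and traffic proteins, with 15658 to 41155 exonic bases, and it was chosen with the length trend known. All 16 were lower with EGCG and had an unadjusted p under 0.05, and 4 (Macf1, Dst, Syne1 and Syne2) passed the adjusted threshold of edgeR. Among the longest 733 tested genes these shares were 81.7%, 30.2% and 1.36%. The median log2 fold change was -0.15 there, beside -0.40 for the list, so its genes were lower than most genes of their length. How far the choice of the list made this gap was not tested. Lyst, a lysosomal traffic protein of 17459 exonic bases, had the value nearest 0, -0.25. Of the 8 enzymes, those as long as this list are Kmt2a, Kmt2c and Kmt2d, at -0.35, -0.25 and -0.41. After the length correction the list had a median of -0.21, with 12 genes at an unadjusted p under 0.05 and 0 past the adjusted threshold of edgeR. Over all tested genes in that fit, 4.45% were lower at an unadjusted p under 0.05 and 0.0204% were called lower. The difference between the 8 enzymes and this list was not tested.

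**Figure D5:**
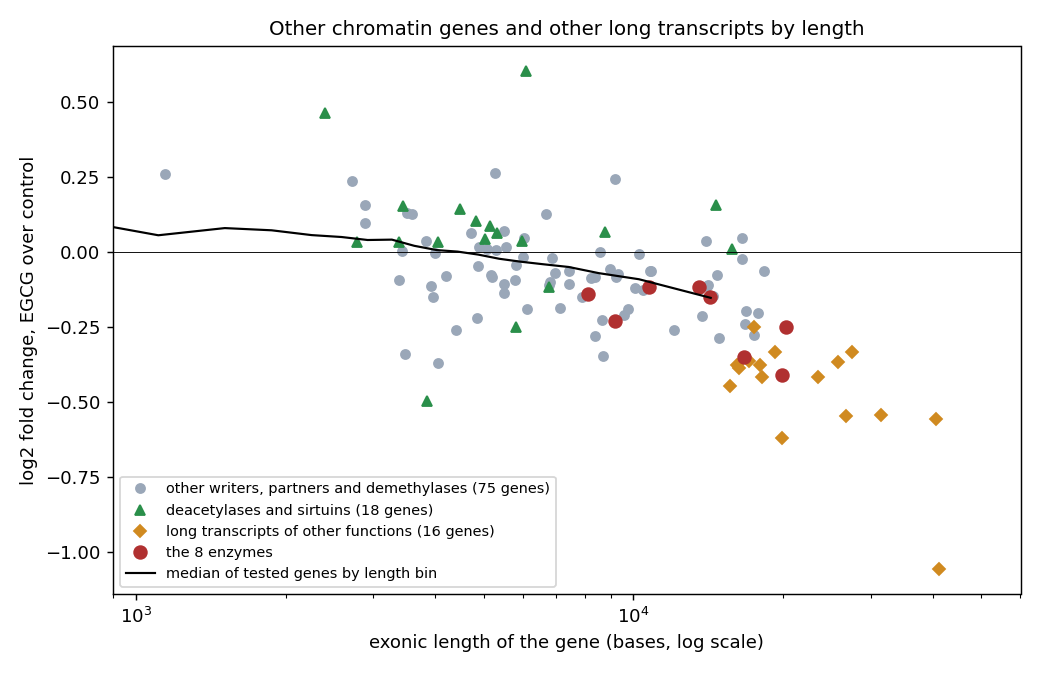
Log2 fold change (EGCG over control) against exonic length in bases (log scale) for the 8 enzymes (red), other writers, partners and demethylases (gray), deacetylases and sirtuins (green triangles) and 16 long transcripts of other functions (orange diamonds), with the median of tested genes by length bin as a line. The orange points lie between -1.06 and -0.25, all below the lowest bin median of -0.15, and the green triangles lie mostly above it.

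The counting did not use strand, so reads of overlapping genes cannot be separated. In the annotation, 2.27% of the exonic bases of Kmt2a overlap an antisense gene on the other strand and 1.35% of those of Kmt2c overlap a predicted transcript, also on the other strand. Sequence words of 31 bases shared with transcripts of other genes made up at most 2.45% (Kmt2d) of a gene's words. The share of reads that could be split between genes was not measured.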

How the data were processed

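Per the labels and the paper's methods, the authors aligned the reads with STAR 2.6.0c to GRCm38 and counted them per gene with featureCounts 1.6.2 on Ensembl release 91. The deposited values are whole-number counts without normalization, counted without regard to strand. They were analysed with edgeR 4.0.16 (R 4.3.3): filterByExpr with a minimum count of 10, TMM scaling, the quasi-likelihood test in its legacy form, and Benjamini-Hochberg adjustment over the 14682 tested genes with a threshold of 0.05. The standard error is the log2 fold change divided by the square root of F. Exonic lengths (union of exons) and positions came from GENCODE M21, also GRCm38, and 27 tested genes had no length. The length correction used loess with a span of 0.4 on log2 CPM (prior count of 2). Both fits were tested on simulated data. Promoter windows came from RefSeq. DESeq2 1.42.0, other filters, scalings and fits, a replicate block and each library left out were alternatives. The named genes were the 8 members, their 7 closest relatives and, in each chromatin list, any gene past the threshold or else the 2 with the smallest p. Hdac4 and Hdac5 were named besides, for their unadjusted p after the length correction. The members and lists were chosen with earlier results of these data known. Leaving out a library under the length correction, and comparison with the nearest 200 genes in length, were added after seeing the data.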

Additional observations from a re-analysis of the deposited data

How the results depend on the processing

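Of the alternatives that kept all libraries, library size only and DESeq2 each put 1 of the 8 genes, Kmt2d, past the adjusted threshold (log2 fold changes -0.45 and -0.41), and the others put 0 there. When single libraries were dropped, 0 (control replicate 1) to 2 (control replicate 2 or EGCG replicate 1) of the 8 passed, 7 to 8 were lower, and their median ran from -0.28 to -0.16. The median was -0.23 with library size only, -0.050 with the length correction, -0.043 with length and GC correction and -0.048 with the replicate block and length correction. The number of lower genes was 5 with the length correction, with or without the block. Positive values appeared for Ep300 (0.0060 with the length correction, 0.020 with GC added, 0.0061 with the block) and Crebbp (0.034, 0.048 and 0.034). They appeared for Setd2 with the length correction (0.0059, and 0.0065 with the block, but -0.0071 with GC added) and for Ehmt1 when control replicate 1 was dropped (0.030). Across such omissions Ehmt1 ran from -0.28 to 0.030. The length-corrected values ran from -0.019 to 0.029 for Ep300, from -0.039 to 0.053 for Setd2, from 0.010 to 0.057 for Crebbp, from -0.086 to -0.031 for Kmt2c and from -0.17 to 0.096 for Ehmt1. Setting the 8 genes beside their 200 nearest genes in length moved no difference by more than its standard error.
Over all genes, the calls (20 lower and 2 higher) became 135 and 16 with library size only, 9 lower with upper-quartile scaling, 0 and 0 without a filter, 49 and 14 with the robust fit, 51 and 16 with DESeq2, 3 lower with the length correction, 2 lower with the block and length correction, 11 higher with length and GC correction, 6 higher with the newer fit and 1 higher with the filter of 1 CPM. They were fewest when control replicate 1 was dropped and most when control replicate 2 was, 72 to 235 lower and 5 to 119 higher. The 4 calls among the 16 other long transcripts became 15 with library size only, 1 with upper-quartile scaling, 0 without a filter, 9 with the robust fit, 12 with DESeq2, 0 with the length correction (with or without the block) and 1 with GC added, and ran from 4 (control replicate 1 dropped) to 15 (control replicate 2 dropped). Calls among the other chromatin genes ran from 0 to 4 lower in the same way. Apart from the corrections' own construction, the cause of these shifts was not tested.
The replicate numbers have no stated shared source, and deviations of same-numbered libraries correlated at 0.0336 across genes. The replicate block left 0 of the 8 past the threshold (Kmt2d: log2 fold change -0.40, edgeR adjusted p = 0.0551) and 6 genes higher overall.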
